A study of Mus musculus with 24 samples.

Results

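The miR-17/92 and miR-106b/25 clusters were followed through 24 small RNA libraries from the right cerebellum, cortex and striatum/thalamus of 8 neonatal mice. The members were chosen by name: mmu-miR-17-5p, mmu-miR-18a-5p, mmu-miR-18a-3p, mmu-miR-19a-3p, mmu-miR-19b-3p, mmu-miR-20a-5p and mmu-miR-92a-3p for miR-17/92, and mmu-miR-106b-5p, mmu-miR-93-5p and mmu-miR-25-3p for miR-106b/25. They are 10 of the 1531 mouse miRNA entries with counts. All pups were CD1 mice at postnatal day 9, and no genotype beyond the strain was given. The 4 pups with hypoxic-ischemic brain injury (HIBI, pups 1, 4, 5 and 7) had the right common carotid artery cauterized, recovered for 2 h and then breathed 8% oxygen for 30 min. The 4 sham pups (2, 3, 6 and 8) had the same anesthesia and neck dissection without ligation and spent 30 min in normoxia away from the dam. Tissue was taken 30 min after injury, and both sexes were used. The cerebellum and forebrain of a pup received the same hypoxia, and there was no group with hypoxia alone. Libraries held 1254185 to 3406624 mouse miRNA counts, with a median of 2161382.

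MiR-17/92 is a polycistronic cluster known for promoting proliferation of progenitor cells, including the granule neuron precursors that are still dividing in the postnatal cerebellum. MiR-106b/25 is its paralog and lies within Mcm7, which encodes a subunit of the replicative helicase. In general, one primary transcript is cut into several hairpins, each hairpin into a 5p and a 3p arm, and the arm loaded into Argonaute selects targets mostly through its seed, bases 2 to 8 from the 5′ end. Members of these clusters are known to repress the cell cycle inhibitor Cdkn1a and the proapoptotic Bcl2l11.

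The sequences below are the RefSeq mature miRNAs for GRCm38.p6, where all 10 members were matched, and capitals mark the seed. They are shown because members with the same seed come from both clusters, and because several differ by so few bases that reads could have been divided between them. Of the members, 4 carry the seed AAAGUGC, 3 of them ending in the same bases:
miR-17-5p: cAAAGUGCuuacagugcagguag
miR-20a-5p: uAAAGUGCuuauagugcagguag
miR-93-5p: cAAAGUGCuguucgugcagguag
miR-106b-5p: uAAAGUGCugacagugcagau
The seed of miR-18a-5p differs from that of miR-17-5p at one base (A4G, counted from 1 at the 5′ end, with the miR-17-5p base first), and miR-18a-3p is the other arm of the same hairpin:
miR-18a-5p: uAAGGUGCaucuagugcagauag
miR-18a-3p: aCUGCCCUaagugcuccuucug
MiR-19a-3p and miR-19b-3p share a seed and differ only by U11C:
miR-19a-3p: uGUGCAAAucuaugcaaaacuga
miR-19b-3p: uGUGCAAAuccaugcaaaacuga
MiR-92a-3p of miR-17/92 and miR-25-3p of miR-106b/25 share the seed AUUGCAC with miR-92b-3p, which belongs to neither cluster and differs from miR-92a-3p by U10C and G21C over the 21 bases compared:
miR-92a-3p: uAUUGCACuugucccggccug
miR-25-3p: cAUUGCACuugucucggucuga
miR-92b-3p: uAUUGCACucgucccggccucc

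In GRCm38 the miR-17/92 hairpins lie on the plus strand at chr14:115043671-115044506, inside an exon of the noncoding host gene Mir17hg (chr14:115042879-115046727). The miR-106b/25 hairpins lie on the minus strand at chr5:138165321-138165818, within intronic sequence of the protein-coding transcripts of Mcm7 (chr5:138164583-138172422). MiR-19b-3p and miR-92a-3p are also encoded by X chromosome hairpins at chrX:52741983-52742066 and chrX:52741838-52741928. Counts of these 2 mature miRNAs do not separate the chromosome 14 and X copies.

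The first question was whether the members differed between the cerebellum and the forebrain, the cortex and striatum/thalamus taken with equal weight. MiR-106b/25 supplied most of the signal in every region. Levels are given as CPM, counts scaled to the size of each library with TMM factors. The summed level of its 3 members was 9143 ± 1867 CPM (SD, n = 8) in the cerebellum, 2185 ± 346.1 in the cortex and 1346 ± 364 in the striatum/thalamus. The 7 miR-17/92 members summed to 900.2 ± 210.7, 302.8 ± 49.64 and 244.6 ± 107.7 CPM in the same regions. MiR-93-5p and miR-25-3p alone made up 50.3% and 38.4% of the members' counts in the cerebellum. Ligation efficiency differs between miRNAs, so levels of different members are compared here only as library counts. In bulk tissue, fewer cells that contain a miRNA and less of it per cell cannot be told apart.

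Within miR-106b/25, miR-93-5p was at 6205, 4539, 4785 and 5667 CPM in the sham cerebellum and 2814, 5537, 4217 and 6532 CPM in the HIBI cerebellum (pups in ascending order). Its 16 forebrain libraries ran from 598.3 to 1628 CPM. Every cerebellum library was above every forebrain library, and the difference was 2.19 on the log2 scale (SE 0.142, edgeR adjusted p = 3.1e-12). MiR-25-3p was at 4477, 3821, 3543 and 4383 CPM in the sham cerebellum and 2795, 3779, 3446 and 4717 CPM in the HIBI cerebellum, against 283.2 to 895.4 CPM in the forebrain. The regions were again fully separated, by 2.75 (SE 0.142, edgeR adjusted p = 2.84e-14), the smallest adjusted p among the members. MiR-106b-5p, first in the transcript, was less abundant, at 270.8, 232.4, 239.3 and 239.2 CPM in the sham cerebellum and 133, 229.9, 226 and 317 CPM in the HIBI cerebellum. Its forebrain libraries held 13.48 to 67.41 CPM and did not reach the cerebellum values, for a log2 difference of 2.69 (SE 0.192, edgeR adjusted p = 1.13e-11).

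Within miR-17/92, miR-17-5p was at 456.2, 379.5, 313 and 267.1 CPM in the sham cerebellum and 203, 403.7, 440 and 508.5 CPM in the HIBI cerebellum. The forebrain libraries held 36.13 to 158.1 CPM, all below the lowest cerebellum library, and the log2 difference was 2.06 (SE 0.173, edgeR adjusted p = 2.27e-10). MiR-92a-3p, the last hairpin product of the cluster, was at 583.8, 383.2, 234.2 and 357.7 CPM in the sham cerebellum and 288.5, 377.7, 241.1 and 312.5 CPM in the HIBI cerebellum. Here the regions overlapped, because the striatum/thalamus of HIBI pup 4 reached 405.7 CPM while the other 15 forebrain libraries lay between 68.13 and 194.6 CPM. MiR-92a-3p had the smallest regional difference of the tested members, 1.29 (SE 0.218, edgeR adjusted p = 1.38e-05).

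The lower members of miR-17/92 ran the same way with wider errors. MiR-20a-5p, which shares the miR-17-5p seed, was at 50.11 to 129 CPM in the cerebellum (median of 8 libraries 87.6) and 0.422 to 28.47 CPM in the forebrain. MiR-18a-5p was at 26 to 53.58 CPM in the cerebellum and 0 to 13.5 CPM in the forebrain, including 3 striatum/thalamus libraries with no count. Both were fully separated by region, with log2 differences of 2.67 (SE 0.304) and 2.82 (SE 0.321). MiR-19b-3p was at 13.91 to 62.51 CPM in the cerebellum and 0 to 15.12 CPM in the forebrain (2.37, SE 0.292), and miR-18a-3p at 16.28 to 52.95 and 1.13 to 17.24 CPM (1.60, SE 0.287). Each of these overlapped the forebrain at its lower edge. MiR-19a-3p could not be assessed: it had 6 counts over 8 cerebellum libraries, 4 over 8 cortex libraries and 0 over 8 striatum/thalamus libraries, where a count of 0 allows up to 0.194 CPM before scaling.

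**Figure D1:**
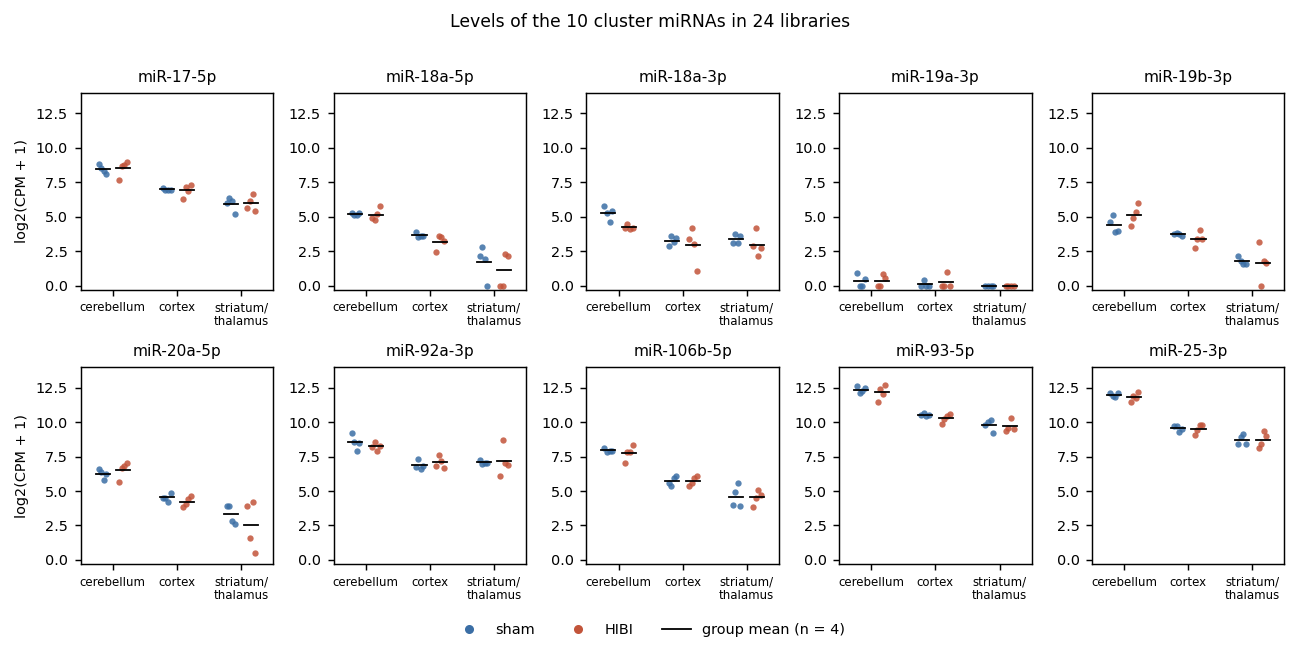
Level of each cluster miRNA as log2(CPM + 1) in every library, by region, with one point per pup (sham blue, HIBI red) and a bar at the mean of each group of 4. Cerebellum points lie above both forebrain regions for 9 members, with overlap for miR-18a-3p, miR-19b-3p and miR-92a-3p, and miR-19a-3p stays near 0 throughout.

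Among all 435 miRNAs tested across regions, 37.5% were higher in the cerebellum at an adjusted p under 0.05 and 17.0% were also higher by more than 1 on the log2 scale. The 5 members that averaged above 10 CPM in every region (miR-17-5p, miR-92a-3p, miR-106b-5p, miR-93-5p and miR-25-3p) all met both criteria. A further 4 tested members (miR-18a-5p, miR-18a-3p, miR-19b-3p and miR-20a-5p) also met them, but averaged under 10 CPM in at least 1 region. Over the 16 forebrain libraries miR-18a-5p, miR-18a-3p and miR-19b-3p averaged 6.25, 8.82 and 6.92 CPM, and passed the minimum only through their cerebellum values. Their regional calls, separation and exact tests are given as description only. The last member, miR-19a-3p, was not tested. All 8 cerebellum libraries were above all 16 forebrain libraries for 6 of the 10 members, miR-18a-5p among them, against 8.51% of the miRNAs tested. The median difference over the 435 miRNAs was 0.048. Comparing each pup's own cerebellum and forebrain on log2(CPM + 1), the cerebellum was higher in 8 of 8 pups for each of the 9 tested members, with p = 0.00781 in a two-sided exact permutation test, the smallest value that 8 pairs allow. MiR-19a-3p was higher in 4 of 8 pups (exact permutation p = 0.125).

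Regional markers were set beside the tissue labels. These lists were chosen with earlier results of these data known, so they are no independent check of the labels. All 3 cerebellum markers (miR-206-3p, miR-497a-5p, miR-195a-5p) were higher in the cerebellum than in the forebrain, at edgeR adjusted p under 0.05. All 3 forebrain markers (miR-221-3p, miR-222-3p, miR-138-5p) were lower in the same comparison. MiR-138-5p averaged 149.5 CPM in the cerebellum, 147.2 CPM in the striatum/thalamus and 289.6 CPM in the cortex. Only its cortex mean was above its cerebellum mean, so it did not separate the cerebellum from the striatum/thalamus. Markers of other cell types also differed between regions, and their part in the members' difference was not tested. Of the 4 erythrocyte miRNAs, which travel with residual blood, 2 were tested, and 1 was higher in the cerebellum (miR-451a, 0.67 on the log2 scale), while the list summed to 593.9 to 1338 CPM in the cerebellum, 463.8 to 672.3 in the cortex and 514.3 to 1425 in the striatum/thalamus. Both oligodendrocyte miRNAs were higher in the cerebellum (1.65 for miR-219a-2-3p and 1.60 for miR-338-3p), and that list summed to 4792 to 8316 CPM in the cerebellum, 787.6 to 2548 in the cortex and 1046 to 4180 in the striatum/thalamus. Of 2 endothelial miRNAs the 1 tested was higher (miR-126a-3p, 0.54, summed list 2113 to 4829 CPM in the cerebellum and 973.7 to 3739 CPM in the forebrain regions). Of 3 myeloid miRNAs the 1 tested was higher (miR-223-3p, 0.53, summed list 14.49 to 52.24 and 10.56 to 47.25 CPM). Of 5 choroid plexus and ciliated cell miRNAs 3 of 4 tested were higher (summed list 2558 to 10190 and 1883 to 4642 CPM), and of 3 muscle miRNAs both tested were higher (345 to 650.9 and 28.41 to 140.8 CPM), one of which is the cerebellum marker miR-206-3p. No marker of these lists was at 0 in all libraries of a region.

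Within the forebrain the cortex was above the striatum/thalamus for 7 members, against 25.1% of the 435 miRNAs tested. Among the members measured above 10 CPM in every region, miR-106b-5p differed by 1.11 on the log2 scale (SE 0.238, edgeR adjusted p = 0.000447), miR-17-5p by 0.97 (SE 0.212, adjusted p = 0.000544), miR-25-3p by 0.77 (SE 0.171, adjusted p = 0.000593) and miR-93-5p by 0.64 (SE 0.172, adjusted p = 0.00327). Each was higher in the cortex of 8 of 8 pups, although the libraries of the 2 regions overlapped. MiR-19b-3p and miR-18a-5p had the 2 highest cortex to striatum/thalamus differences of all 435 miRNAs tested, 2.01 (SE 0.393) and 1.96 (SE 0.437). They rested on 41 and 42 counts over the 8 striatum/thalamus libraries. MiR-20a-5p differed by 1.15 (SE 0.388, adjusted p = 0.0156), in 7 of 8 pups. MiR-18a-3p was at 8.78 ± 4.57 CPM in the cortex and 8.87 ± 4.35 CPM in the striatum/thalamus and miR-92a-3p at 128.1 ± 35.8 and 157.7 ± 103.2 CPM, and neither passed the test (log2 differences of -0.006 with SE 0.364 and -0.29 with SE 0.262). With the 4 HIBI pups alone, only miR-18a-5p and miR-106b-5p passed, against 7 members with the 4 sham pups alone. The share of all miRNAs called higher in the cortex was 13.7% of 446 in the HIBI pups and 16.5% of 423 in the sham pups. Whether the regional difference itself changed with injury was not tested for this pair of regions.

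**Figure D2:**
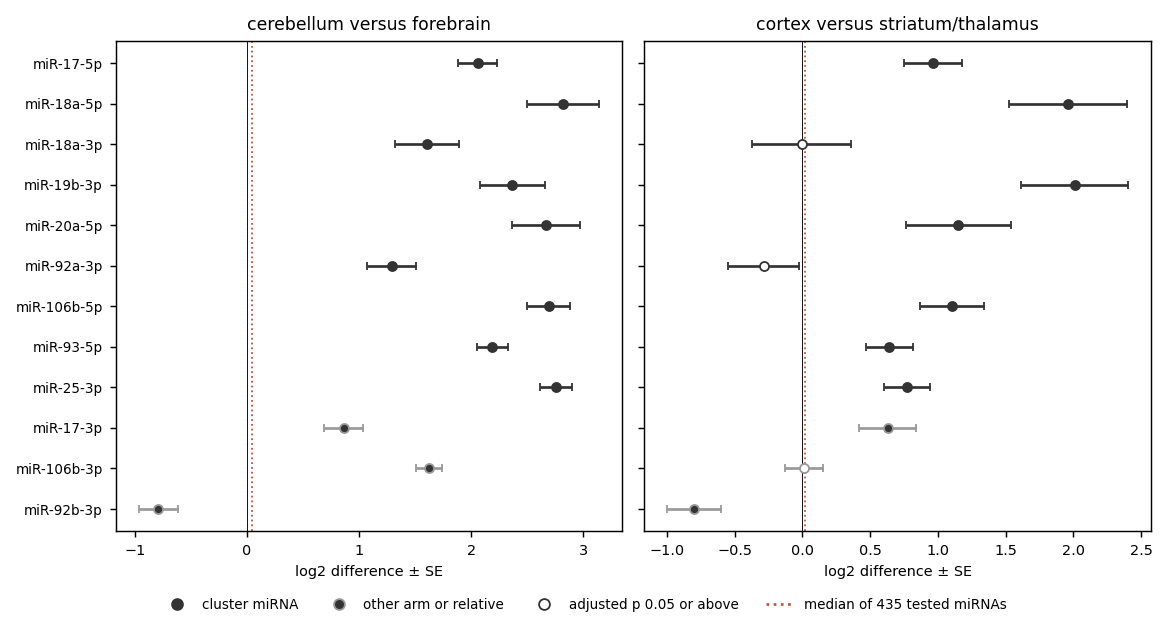
Log2 difference ± SE for the cerebellum against the forebrain (left) and the cortex against the striatum/thalamus (right), for the 9 tested members, 2 other arms and miR-92b-3p. Filled points passed an adjusted p of 0.05, the dotted line is the median of the 435 miRNAs tested, and miR-92b-3p is the one point on the lower side in both panels.

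The proportions between members also differed from region to region. The ratio of summed miR-17/92 to summed miR-106b/25 counts had a median of 0.103 in the cerebellum (0.0774 to 0.114 over 8 libraries), 0.133 in the cortex (0.121 to 0.201) and 0.151 in the striatum/thalamus (0.126 to 0.434). In all 8 pups the cerebellum had the lowest ratio of the 3 regions. The highest value, 0.434, was the striatum/thalamus of HIBI pup 4, where miR-92a-3p held 599 of the 729 miR-17/92 counts. Over all libraries miR-92a-3p held 6075 of 15883 miR-17/92 counts in the cerebellum, 2618 of 6233 in the cortex and 2339 of 3692 in the striatum/thalamus. The order of the regions may therefore depend in part on this member, and the ratio without it was not taken. Ratios are given as descriptions, without a test. MiR-17-5p to miR-20a-5p was 4.25 on summed counts in the cerebellum, 6.11 in the cortex and 7.11 in the striatum/thalamus. It was lower in the cerebellum than in the cortex in 8 of 8 pups, but above the striatum/thalamus in 2 of 8. Single striatum/thalamus libraries ran from 3.5 to 100, the highest resting on 1 miR-20a-5p count. MiR-17-5p to miR-92a-3p was 1.09, 0.982 and 0.425 in the same order. MiR-106b-5p to miR-93-5p, both with the AAAGUGC seed and from neighboring hairpins, was 0.0468, 0.0385 and 0.0287, and miR-106b-5p to miR-25-3p was 0.0613, 0.0716 and 0.0567. MiR-19a-3p to miR-19b-3p was 0.0115 and 0.017 in the cerebellum and cortex, from 6 and 4 miR-19a-3p counts.

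**Figure D3:**
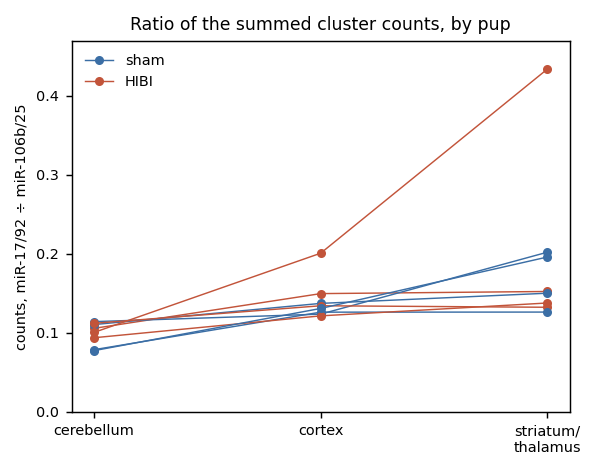
Ratio of summed miR-17/92 counts to summed miR-106b/25 counts in each region, with one line per pup (sham blue, HIBI red). All 8 lines are lowest in the cerebellum, between 0.0774 and 0.114, and the striatum/thalamus of HIBI pup 4 stands at 0.434.

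The 2 arms of the miR-18a hairpin followed different patterns. MiR-18a-5p to miR-18a-3p was 1.25 in the cerebellum (632 and 507 summed counts) and 1.20 in the cortex (210 and 175), but 0.311 in the striatum/thalamus (42 and 135). The ratio in the striatum/thalamus was below that of the same pup's cerebellum and cortex in 8 of 8 pups. At these counts a single library gave between 0 and 14 miR-18a-5p counts in the striatum/thalamus. Across the 24 libraries, the level of each member on log2(CPM + 1) was compared with the mean of the other 9. Pearson's r was 0.981 for miR-93-5p, 0.971 for miR-17-5p, 0.969 for miR-25-3p and 0.961 for miR-106b-5p, and lowest for miR-92a-3p (0.679), miR-18a-3p (0.624) and miR-19a-3p (0.494). The points share 8 pups and 3 regions, so these values describe mainly the regional order. The 3 miRNAs outside the clusters and their relatives with the most similar profile, of 423 compared, were miR-497a-5p (r = 0.972), miR-195a-5p (r = 0.965) and miR-195a-3p (r = 0.953). MiR-497a-5p was at 284 to 560.8 CPM in the cerebellum, 47.67 to 148.4 in the cortex and 19.8 to 39.82 in the striatum/thalamus. MiR-497a-5p and miR-195a-5p are also among the cerebellum markers above.

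Of 8 other arms of the cluster hairpins, 7 were in the tables and 2 were tested across regions. Both were higher in the cerebellum. MiR-106b-3p differed by 1.62 on the log2 scale (SE 0.117, edgeR adjusted p = 1.44e-11) and miR-17-3p by 0.86 (SE 0.174, adjusted p = 0.000117). In the cortex against the striatum/thalamus, miR-17-3p passed (0.63, SE 0.208) and miR-106b-3p did not (0.009, SE 0.141).

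Of 12 paralogs and seed relatives, 9 were in the tables and only miR-92b-3p was tested across regions. Between the cerebellum and the forebrain it ran opposite to miR-25-3p and miR-92a-3p, the members with its seed. In the cortex against the striatum/thalamus, miR-25-3p was higher (0.77, SE 0.171) and miR-92a-3p was not called (-0.29, SE 0.262). MiR-92b-3p was at 1656 to 3377 CPM in the cerebellum (median 2475), 2240 to 4663 CPM in the cortex (median 2794) and 3714 to 10450 CPM in the striatum/thalamus (median 4600). The cerebellum was lower by a log2 difference of -0.79 (SE 0.178, edgeR adjusted p = 0.000387) and the cortex was below the striatum/thalamus by -0.80 (SE 0.199, adjusted p = 0.00175). MiR-92a-3p and miR-92b-3p differ at 2 of 21 compared positions, and the rule by which the authors assigned reads that match several entries was not stated. MiR-92a-3p counts stood to miR-92b-3p counts as 0.143 in the cerebellum, 0.0404 in the cortex and 0.0273 in the striatum/thalamus. This ratio was chosen after its values were seen, and the cerebellum ratio was the highest in 8 of 8 pups. In the striatum/thalamus of HIBI pup 4, where miR-92a-3p was highest, miR-92b-3p was also highest at 10450 CPM. The erythrocyte miRNA miR-486a-5p was highest there too, at 1321 CPM (384.6 to 797.3 CPM in the other 7). The erythrocyte miRNA miR-451a was not highest there. It was at 62.45 to 125.8 CPM in the HIBI striatum/thalamus and reached 356.2 CPM in a sham library. The part of these miRNAs in the miR-92a-3p value was not tested.

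**Figure D4:**
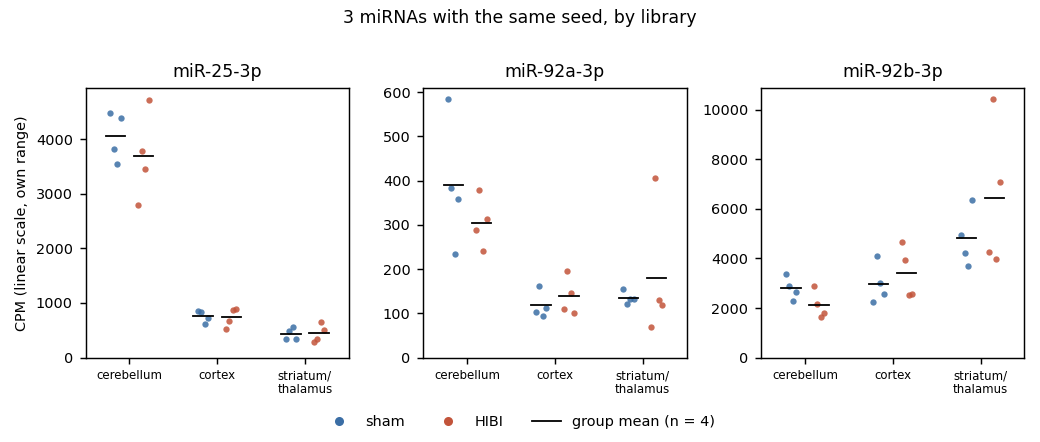
Level in CPM, on a linear axis with its own range for each miRNA, of miR-25-3p, miR-92a-3p and miR-92b-3p in every library by region (sham blue, HIBI red, bar at the mean of 4). MiR-25-3p and miR-92a-3p are highest in the cerebellum and miR-92b-3p, with the same seed, is highest in the striatum/thalamus.

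The second question was whether the members showed differential expression (DE) 30 min after HIBI. A call required a fold change above 1.5, an unadjusted p under 0.05 and an average above 10 CPM in the region, taken before TMM scaling. In the cerebellum, 9 members were tested and 1 was called, against 7.83% of 434 miRNAs in either direction and 4.15% in the lower direction. MiR-18a-3p was at 52.95, 37.57, 24.11 and 42.75 CPM in sham pups and 17.35, 21.44, 16.28 and 16.97 CPM in HIBI pups. All 4 HIBI values were below the lowest sham value, which held for 1 of the 10 members and, in either direction, for 3.92% of the miRNAs tested. The difference was -1.10 on the log2 scale (SE 0.305, unadjusted p = 0.00363), but the edgeR adjusted p was 0.432, and no miRNA in the cerebellum passed an adjusted p of 0.05 (0% of 434, with 44 at an unadjusted p under 0.05). DESeq2 gave an adjusted p of 0.178 for miR-18a-3p. The two-sided exact permutation p was 0.0286, the smallest that 4 against 4 allow. The other arm, miR-18a-5p, was at 38.2, 34.35, 33.39 and 38.04 CPM in sham pups and 28.27, 26, 34.89 and 53.58 CPM in HIBI pups, with overlapping groups and a log2 difference of 0.02 (SE 0.300).

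The direction of calls in the cerebellum as a whole depended on scaling. Of 34 miRNAs called, 16 were higher and 18 lower after HIBI, which became 41 higher and 10 lower with library size alone and 7 higher and 39 lower with upper quartile scaling. The median difference over the 434 miRNAs was 0.107, 0.268 and -0.019 under these 3 scalings. The difference of miR-18a-3p was -1.10, -0.92 and -1.24 under them. The erythrocyte markers summed to 735.9 to 1338 CPM (median 1224) in the sham cerebellum and 593.9 to 796.5 CPM (median 695.9) after HIBI. MiR-486a-5p of that list was called lower (-0.86, SE 0.272), from a mean of 857 CPM to 465.5 CPM. MiR-451a was not called (-0.23, SE 0.383). The untested miR-144-5p averaged 6.47 CPM in sham and 8.28 CPM in HIBI pups, and miR-144-3p 0.93 and 0.71 CPM. Of 3 muscle miRNAs tested, miR-1a-3p was called higher (1.05, SE 0.481, unadjusted p = 0.0496), and the list summed to 446.6 to 601.6 CPM in sham pups and 345 to 650.9 CPM in HIBI pups. MiR-206-3p of the muscle list went the other way and was not called (-0.53, SE 0.205, fold change 1.45). Its HIBI values, 253.8 to 345.8 CPM, all lay below its sham values, 360.4 to 546.5 CPM. MiR-133a-3p was not called (0.16, SE 0.447). None of the 4 choroid plexus and ciliated cell miRNAs tested was called, with values down to -0.78 (miR-34b-3p, SE 0.391) and -0.72 (miR-204-5p, SE 0.340). The choroid plexus and ciliated cell list summed to 2558 to 10190 CPM (median 4629) in sham pups and 2763 to 4054 CPM (median 3077) in HIBI pups. The part of these lists in the miR-18a-3p difference was not tested.

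The other 8 tested members in the cerebellum had differences between -0.33 (miR-92a-3p, SE 0.264) and 0.84 (miR-19b-3p, SE 0.426). MiR-19b-3p was at 23.87, 33.28, 13.91 and 14.51 CPM in sham pups and 19.27, 29.65, 40.32 and 62.51 CPM in HIBI pups. The groups overlapped, the unadjusted p was 0.0723, and it was called without HIBI pup 1 (1.04), without sham pup 3 (1.13), with library size scaling (0.97) and with no CPM minimum (0.81). Among the other arms, miR-25-5p was called lower in the HIBI cerebellum (-1.21, SE 0.421, unadjusted p = 0.0137, edgeR adjusted p = 0.432). It was at 30.38, 42.94, 19.94 and 16.47 CPM in sham pups and 7.71, 14.14, 8.14 and 16.97 CPM in HIBI pups, and the groups overlapped by a single HIBI value. MiR-25-3p from the same hairpin differed by -0.12 (SE 0.196).

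In the striatum/thalamus 5 members were tested (miR-17-5p, miR-92a-3p, miR-106b-5p, miR-93-5p and miR-25-3p) and none was called, against 2.75% of 436 miRNAs. Their differences lay between -0.25 (miR-106b-5p, SE 0.461) and 0.30 (miR-92a-3p, SE 0.434). The miR-92a-3p value rested on HIBI pup 4 and became -0.34 without it. In the cortex 7 members were tested, with miR-19b-3p and miR-20a-5p added, and none was called, against 3.41% of 410 miRNAs. Differences there lay between -0.31 (miR-20a-5p, SE 0.290) and 0.24 (miR-92a-3p, SE 0.253). MiR-18a-5p averaged 9.87 CPM in the cortex before TMM scaling (10.06 after) and so was just under the minimum. It was at 13.5, 10.53, 11.18 and 11.3 CPM in sham pups and 4.435, 10.84, 10.41 and 8.28 CPM in HIBI pups. Its groups overlapped by a single HIBI value, the two-sided exact permutation p was 0.0571, and with a minimum of 1 CPM the difference was -0.44 on the log2 scale (SE 0.367, unadjusted p = 0.245). No tested member was at an unadjusted p under 0.05 in either region by edgeR, and DESeq2 called none. No member's groups were separated in either region, against backgrounds of 1.83% (striatum/thalamus) and 3.41% (cortex). At an adjusted p under 0.05 the backgrounds were 0% in the striatum/thalamus, where 14 miRNAs were at an unadjusted p under 0.05, and 0.244% in the cortex.

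**Figure D5:**
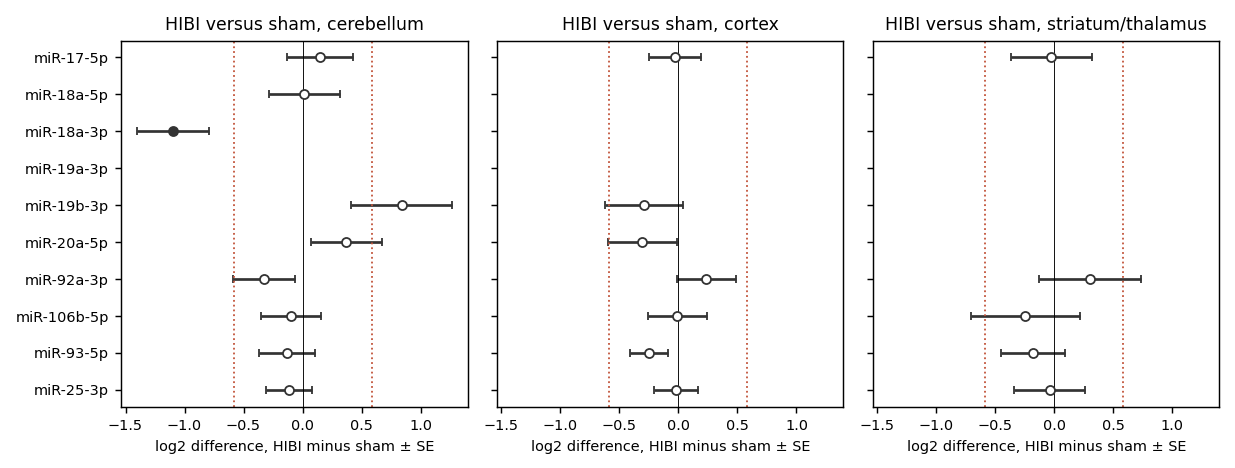
Log2 difference, HIBI minus sham, ± SE for each tested member in the cerebellum, cortex and striatum/thalamus (n = 4 per group), with dotted lines at a fold change of 1.5 and filled points for calls. MiR-18a-3p in the cerebellum, at -1.10, is the single call, and members without a point averaged under 10 CPM in that region before TMM scaling.

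Finally, the injury difference in the cerebellum was set against that in the forebrain. No member passed, and no miRNA did (0% of 435 at an adjusted p under 0.05 by edgeR, with 70 at an unadjusted p under 0.05, while DESeq2 called 2 higher and 4 lower). The smallest adjusted p among the members was 0.423, for miR-18a-3p, with a cerebellum minus forebrain value of -0.95 on the log2 scale (SE 0.594). MiR-19b-3p differed by 0.85 (SE 0.613) and miR-92a-3p by -0.68 (SE 0.452). For the abundant members the values were smaller, at 0.12 for miR-17-5p (SE 0.360), -0.03 for miR-106b-5p (SE 0.399), 0.02 for miR-93-5p (SE 0.296) and -0.15 for miR-25-3p (SE 0.294).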

How the data were processed

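Small RNA libraries were made by the authors from 200 ng of RNA with the NEXTFLEX Small RNA Kit, sequenced on a NextSeq 550 and aligned with Bowtie2 to mature mouse miRBase entries. Versions, the miRBase release and the handling of multiply matching reads were not given in the sources used here. The deposited values analysed are raw counts per mature miRNA, in 1 table per region. The deposited log2 fold change, logCPM, p-value and FDR columns hold the authors' own comparisons and were not used. The 20 castor bean entries (84 counts) were left out.

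Counts were scaled with TMM factors and tested with the quasi-likelihood test of edgeR 4.0.16 in R 4.3.3, in miRNAs averaging above 10 CPM by library total (before TMM scaling), with Benjamini-Hochberg adjustment over all miRNAs tested. Injury was fitted within each region (434 miRNAs for the cerebellum, 436 for the striatum/thalamus, 410 for the cortex). Injury calls needed a fold change of more than 1.5 with p under 0.05 before adjustment. Regions, and the difference in injury effect between them, were fitted over all 24 libraries (435 miRNAs) and called at an adjusted p under 0.05. Levels are CPM with the same scaling, and the exact permutation tests used log2(CPM + 1). The exact tests are two-sided. No 2 pups of a group agreed within sampling noise.

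Each pup gave all 3 regions, so the regional comparisons are paired by animal. Within-group deviations of the same pup correlated with a median r of 0.16 to 0.27 between regions, above 0.1 in 5 to 7 of 8 pups. A fit with pup as a block changed no call of a member. Counts were also simulated from these libraries, with some miRNAs changed by 1 on the log2 scale. In the cerebellum injury comparison (422 miRNAs) 72.5% of 193 changed miRNAs were called, and 5.24% of the unchanged. In the cerebellum against forebrain comparison (421 miRNAs) these were 95.9% of 194 and 1.76%. Each library was drawn independently, so the correlation between regions of a pup was not simulated.

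The text names all 10 members. From the lists of other arms and of paralogs and seed relatives it names those with the 3 largest absolute regional differences or any injury call, and it names the 3 most similar profiles. Marker lists covered cerebellum, forebrain, erythrocyte, myeloid, endothelial, choroid plexus and ciliated, oligodendrocyte and muscle. Members and lists were chosen with earlier results of these data known. Alternatives were library size and upper quartile scaling, DESeq2 1.42.0, the likelihood ratio test, CPM minimums of 1 and none, single treatment groups, the block and leaving out each pup. Removing a GC trend (loess, span 0.75), alone and with the block, was added after seeing the data. SEs come from the edgeR fits and include the spread between pups, and SDs are taken over libraries. Floors cover counting error only.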

Additional observations from a re-analysis of the deposited data

Results flagged for a closer look

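Of 58 groups of 4 libraries examined across the members, 2 held a library whose distance from the rest exceeded the critical value of Dixon's test, which chance alone does in about 1 in 20 groups. Both were miR-19a-3p in the cortex. HIBI pup 5 was at 1.01 CPM (3 counts) and sham pup 3 at 0.319 CPM (1 count), with 0 in the other 3 libraries of each group. Where the other 3 libraries hold 0, any count exceeds the critical value, so the rate of 1 in 20 does not apply to these groups. No member had an injury difference that was called between the cerebellum and the forebrain.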

How the results depend on the processing

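All 9 members called higher in the cerebellum than in the forebrain kept that call under every alternative except 1, miR-18a-3p with the HIBI libraries alone (1.21, adjusted p = 0.0588). For miR-18a-5p, miR-18a-3p and miR-19b-3p these calls are description only, since they passed the CPM minimum only through their cerebellum values. Over all miRNAs the share called higher in the cerebellum ran from 13.8% (no CPM minimum) to 38.8% (without pup 6). With pup as a replicate block 9 members were called in that paired fit and 7 in the cortex against the striatum/thalamus. The shares of all 435 miRNAs called higher with the block were 38.2% and 28.0%, and the block changed no call of a member. The cortex calls went from 7 to 2 with the HIBI libraries alone, where the share of all miRNAs called higher went from 25.1% to 13.7%, and miR-20a-5p lost its call without pup 8 (0.94, adjusted p = 0.0767). In the HIBI versus sham comparison of the cerebellum, 1 to 2 members were called when single pups were left out. With library size scaling and with no CPM minimum 2 were called, miR-19b-3p joining miR-18a-3p. Of all miRNAs, 41 were called higher and 10 lower of 434 with library size scaling, and 62 and 44 of 1315 with no minimum. Leaving out single pups gave from 4 higher and 14 lower of 437 (sham pup 2) to 44 higher and 38 lower of 435 (sham pup 6). MiR-18a-3p kept its call throughout (-1.31 to -0.92, adjusted p 0.126 to 0.831).

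The remaining changes were of sign, in differences that were not called in the main fit or under the alternative. For HIBI versus sham in the cerebellum, library size scaling gave 0.0416 for miR-106b-5p, 0.0177 for miR-93-5p and 0.0368 for miR-25-3p. MiR-18a-5p became -0.111 with upper quartile scaling, -0.00122 with DESeq2, -0.0252 with no CPM minimum and -0.171 with the GC trend removed. Leaving out single pups gave ranges of -0.307 to 0.0738 for miR-106b-5p, -0.324 to 0.0421 for miR-93-5p, -0.247 to 0.165 for miR-18a-5p and -0.0444 to 0.349 for miR-17-5p. In the striatum/thalamus, miR-17-5p became 0.038 with library size scaling, 0.0132 with DESeq2, 0.00135 with a CPM minimum of 1 and 0.065 with the GC trend removed, and miR-25-3p 0.0323 with library size scaling and 0.0154 with the GC trend removed. Leave-one-out ranges there were -0.33 to 0.219 for miR-17-5p, -0.478 to 0.297 for miR-106b-5p, -0.299 to 0.204 for miR-25-3p, -0.342 to 0.675 for miR-92a-3p and -0.445 to 0.022 for miR-93-5p. In the cortex, miR-106b-5p became 0.0118 with library size scaling, 0.00913 with DESeq2, 0.0384 with no CPM minimum and 0.0591 with the GC trend removed, miR-17-5p 0.0132 and 0.0181 with the last 2, and miR-25-3p 0.0175 with no CPM minimum. Leave-one-out ranges there were -0.153 to 0.148 for miR-17-5p, -0.106 to 0.133 for miR-106b-5p, -0.107 to 0.122 for miR-25-3p and -0.0105 to 0.446 for miR-92a-3p.

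For the cortex against the striatum/thalamus, miR-18a-3p became 0.0756 with upper quartile scaling, 0.0738 with a CPM minimum of 1, 0.198 with no minimum, 0.0954 with the GC trend removed, 0.0681 with the GC trend removed and the block, 0.179 with the HIBI libraries alone and -0.0947 to 0.103 without single pups. MiR-92a-3p became 0.0313 with the GC trend removed and the block. For the injury effect in the cerebellum against the forebrain, miR-106b-5p became 0.119 with library size scaling, 0.0312 with DESeq2, 0.032 with a CPM minimum of 1, 0.1 with no minimum and -0.301 to 0.147 without single pups. MiR-25-3p became 0.0252 with library size scaling and ranged from -0.247 to 0.0417 without single pups. MiR-93-5p became -0.0107 with the block, -0.0435 with upper quartile scaling and -0.147 to 0.222 without single pups, and miR-17-5p -3.94e-05 with the GC trend removed and the block and -0.0387 to 0.279 without single pups. The cause of these changes was not tested. Depth limits miR-19a-3p, which is at or under 3 counts in each library, and miR-18a-5p and miR-19b-3p in the striatum/thalamus.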
